A study of Mus musculus with 14 samples.

Results

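Small nucleolar RNAs (snoRNAs) and the genes that host them were followed in macrophages taken from 4T1 mammary tumours. The members are the table rows whose gene symbol starts with Snord, Snora, Scarna, Rnu3 or Snhg, or is Gas5, and whose value reached 3.32 on the authors' log2 scale (10 when unlogged) in at least 3 libraries. Of 24556 genes in the table, 92 carry such a symbol, and 32 of these are among the 11886 genes that reached the minimum. The 8 rows of the U3 gene Rnu3b hold only 2 different sets of values, so the 32 rows give 26 distinct profiles. By class, the minimum was reached by 10 of 10 U3 rows, 8 of 30 other box C/D rows, 1 of 30 box H/ACA rows, 0 of 6 small Cajal body RNA rows and 13 of 16 host genes.

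The 14 libraries come from F4/80-positive cells, enriched by magnetic beads, from tumours grown in Balb/c mice. The injected tumour cells were 4T1, a mouse mammary carcinoma line, and before injection into the fat pad they had been cultured for 5 days with DMSO, the solvent, or with the compound GSK269962A at 5 µM. The groups were DMSO day 8 (3 libraries), GSK day 8 (3), DMSO day 14 (4) and GSK day 14 (4), where the day is the time after injection; the mice themselves are not said to have been given the compound. Sex and age of the mice, and whether each library is a separate mouse, are not given in the sources used here, so p-values measure the spread between these libraries. In such bulk fractions, fewer cells of a type and less RNA per cell cannot be told apart.

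snoRNAs are short stable RNAs of the nucleolus. Box C/D snoRNAs pair with ribosomal RNA and guide ribose methylation by fibrillarin, box H/ACA snoRNAs guide pseudouridylation by dyskerin, and U3 is a box C/D snoRNA that acts in the cleavage of the ribosomal RNA precursor rather than in modification. Most mammalian snoRNAs are cut out of introns, and a host gene such as Gas5 or those named Snhg can have a spliced RNA that codes for no protein and is removed by nonsense-mediated decay, while the snoRNAs from its introns are stable.

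The snoRNAs on which the results turn are given here from the GENCODE M21 transcripts, 5′ to 3′, as DNA letters. The capitals mark the first TGATGA, which holds the box C core, and the last CTGA, which is box D, on the RNA strand. Snord89 is shown because it had the largest pre-treatment difference on day 14, Snord14c, Snord14d and Snord14e because they are close copies in a single host gene, Snord83b as a snoRNA that fell with time, and the U3 forms because their rows share sequence.
Snord89: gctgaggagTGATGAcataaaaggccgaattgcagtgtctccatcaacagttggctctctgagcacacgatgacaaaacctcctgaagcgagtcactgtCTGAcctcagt
Snord14c: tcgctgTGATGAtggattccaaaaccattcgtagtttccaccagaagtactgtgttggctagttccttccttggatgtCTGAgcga
Snord14d: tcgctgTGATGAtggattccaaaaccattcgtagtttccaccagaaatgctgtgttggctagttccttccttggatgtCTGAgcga
Snord14e: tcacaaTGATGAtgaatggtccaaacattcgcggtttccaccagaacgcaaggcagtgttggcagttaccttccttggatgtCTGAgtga
Snord83b: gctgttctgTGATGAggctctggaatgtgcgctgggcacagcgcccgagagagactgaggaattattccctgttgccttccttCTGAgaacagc
Rnu3b1, longer model: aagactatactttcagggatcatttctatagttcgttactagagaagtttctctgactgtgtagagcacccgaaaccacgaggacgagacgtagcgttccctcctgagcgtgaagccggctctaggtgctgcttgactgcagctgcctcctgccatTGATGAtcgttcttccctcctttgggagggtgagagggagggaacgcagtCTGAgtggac
Rnu3a, longer model: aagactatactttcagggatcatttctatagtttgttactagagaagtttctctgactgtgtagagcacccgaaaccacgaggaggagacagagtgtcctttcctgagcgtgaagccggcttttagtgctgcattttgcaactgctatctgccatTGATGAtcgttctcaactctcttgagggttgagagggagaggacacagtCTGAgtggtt
Snord14c and Snord14d differ by the substitutions G47A and A49G, counted from 1 at the 5′ end with the Snord14c base first. Snord14e is 79.57% identical to Snord14c over 93 aligned positions. Every Rnu3b locus is annotated with a 215-base and a 216-base gene model that differ by the last base, and Rnu3a with a 213-base and a 214-base model that differ in the same way. Rnu3a and Rnu3b are 85.58% identical over 215 aligned positions. TGATGA occurs in 18 of the 19 snoRNA members (94.74%) and in 393 of all 1507 GENCODE M21 genes of type snoRNA (26.08%), which is a description of the letters only. The single member without it is Snora30, a box H/ACA RNA.

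The macrophage genes Csf1r (11.20 to 12.53) and Adgre1, which encodes F4/80 (8.94 to 10.31), were high in all libraries. Genes of the 4T1 epithelium list were present as well, Krt18 at 6.20 to 10.69 and Epcam at 3.39 to 4.60, and the mean of its 9 tested genes was 6.16 ± 0.41 and 6.70 ± 0.74 on day 8 (DMSO and GSK, SD, n = 3 each) and 5.37 ± 0.21 and 5.06 ± 0.07 on day 14 (SD, n = 4 each). An overlapping pair of ribosomal RNA genes split the libraries, with AY036118 the higher in 9 libraries, among them all 4 of GSK day 14, and Gm42418 the higher in 5. No counts were used, so the depth is unknown.

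Across the members, the pre-treatment differences that passed were all higher in GSK on day 14 and went both ways over both days together. On day 14, 3 of 26 distinct profiles were higher in GSK and 0 lower (limma, adjusted p under 0.05), Snord89, Snhg3 and Snord14e, while 5.10% of the 11886 tested genes were higher and 5.73% lower. On day 8 none of the members passed, against 0.0589% of tested genes that were higher and 0.135% that were lower (0.194% in all), and 3 of 26 had an unadjusted p under 0.05, with a lowest adjusted p of 0.0647 (limma). Over both days together (the mean of the differences on each day), 4 profiles were higher (6.73% of all genes) and 2 lower (7.77%), which are 9 of 32 rows because the 4 loci of Rnu3b share values. No member passed in the test of the difference between the days (lowest adjusted p = 0.532, 1 of 26 with an unadjusted p under 0.05), where 0.00841% of genes passed. The median change of the 26 profiles was 0.08 on day 8 and -0.08 on day 14, beside 0.02 and 0.02 over all tested genes, so the members as a set had no common direction.

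**Figure D1:**
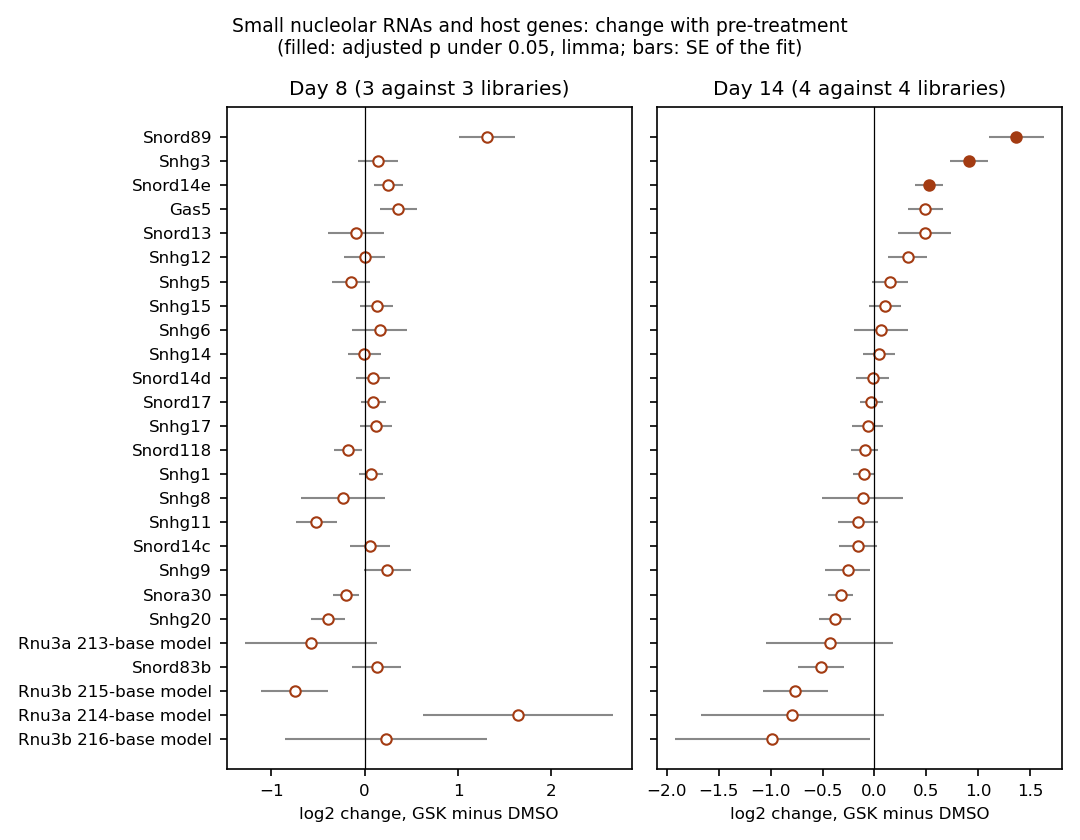
Log2 change of GSK minus DMSO for the 26 distinct profiles on day 8 (left, 3 against 3 libraries) and day 14 (right, 4 against 4), with bars for the standard error of the limma fit and filled points where the adjusted p was under 0.05. Snord89 lies farthest to the right on day 14, at 1.37, and on day 8 lies at 1.31 without passing.

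Of the members past the threshold, Snord89 had the largest change between the pre-treatments. It is a 110-base box C/D snoRNA at chr1:39548745-39548854 on the minus strand (GRCm38), in an intron of the noncoding gene Gm15832. No stretch of 31 bases in it recurs in the annotated transcripts of another gene. Introns were not searched, and unspliced Gm15832 RNA would hold the same sequence. On day 8 its values were 4.46, 4.23 and 5.20 in DMSO and 6.22, 5.67 and 5.93 in GSK. On day 14 they were 4.16, 5.07, 5.10 and 4.89 in DMSO and 5.67, 6.10, 6.15 and 6.76 in GSK. Every GSK library lay above every DMSO library on each day. On day 8, 4 members had groups that did not overlap, and on day 14, 7 members (15.385% and 26.923% of the 26), beside 16.2% and 22.0% of all tested genes. The log2 change was 1.37 on day 14 (SE 0.26, 2.58-fold; adjusted p = 0.00757, limma), 1.31 on day 8 (SE 0.30; adjusted p = 0.0647) and 1.34 over both days (SE 0.20, 2.53-fold; adjusted p = 0.00127). The difference between the days was 0.06 (SE 0.40) and took either sign in fits that left out 1 library. Snord89 kept the day 14 call in each of the 14 fits that left out 1 library, with changes from 1.15 to 1.53. Among the 9 libraries with AY036118 higher, the change over both days was 1.56 (adjusted p = 0.00631, limma), with a single DMSO library on day 8. With the 4T1 epithelium mean in the model it was 1.29 (adjusted p = 0.00144).

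Neither gene around Snord89 passed the test for pre-treatment. Gm15832, which contains it, was at 8.14 ± 0.13 and 7.96 ± 0.54 on day 8 (DMSO and GSK, SD, n = 3 each) and at 8.28 ± 0.13 and 8.03 ± 0.21 on day 14 (SD, n = 4 each). Rnf149, a ubiquitin ligase gene on the same strand whose 3′ end lies 2441 bases from Snord89, was at 13.51 ± 0.31 and 13.23 ± 0.03 on day 8 and at 13.51 ± 0.21 and 13.43 ± 0.07 on day 14. Gm15832 and Rnf149 overlap on this strand, from 39551296 to 39552002. How reads were divided between them is not known, which limits the Gm15832 value used below. Snord89 minus Gm15832 within each library was higher in GSK by 1.55 over both days, with p = 0.00143 in a two-sided exact permutation test within days, the smallest that its 1400 splits can give, and an adjusted p of 0.01 over 7 pairs of a snoRNA and its host. For the other 6 pairs the adjusted p lay between 0.223 and 0.93. This test was added with the Snord89 difference already known, so it describes the pair and adds no independent support.

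**Figure D2:**
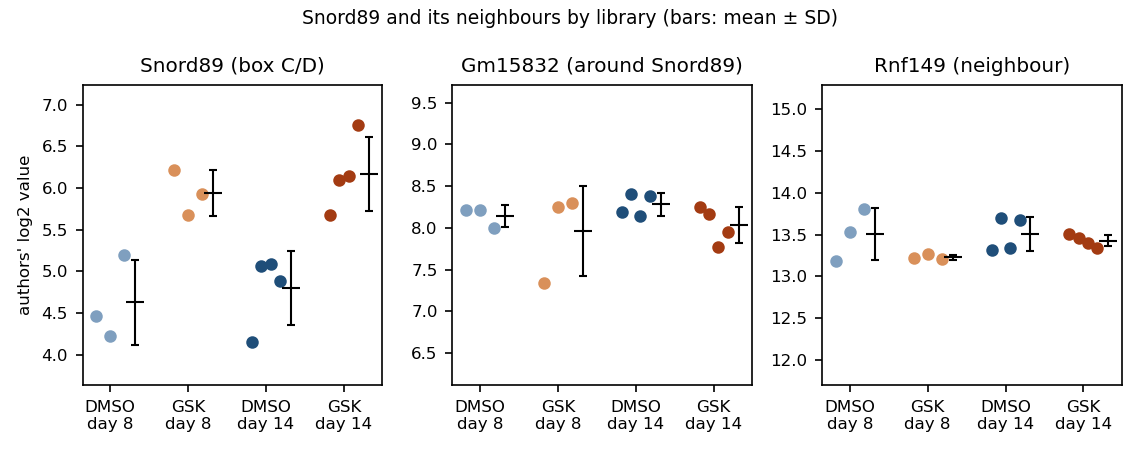
Authors' log2 values by library for Snord89, for Gm15832, whose intron contains it, and for the neighbouring Rnf149, with mean ± SD beside each group (n = 3 on day 8, n = 4 on day 14). Each panel spans the same number of log2 units. The GSK points of Snord89 lie above the DMSO points on both days, and those of Gm15832 and Rnf149 do not.

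Snord14c, Snord14d and Snord14e are box C/D snoRNAs of the U14 family, which acts on the small-subunit ribosomal RNA, and all 3 lie within Hspa8, the constitutive heat-shock protein gene, on chromosome 9 between 40803583 and 40804837. Snord14e on day 14 was at 4.28, 4.24, 4.57 and 4.75 in DMSO and at 5.04, 4.93, 4.95 and 5.02 in GSK, so the groups did not overlap. It rose by 0.52 (SE 0.14; adjusted p = 0.0260, limma) on day 14 and by 0.39 over both days (SE 0.10; adjusted p = 0.0223). On day 8 it was at 4.55 ± 0.07 and 4.81 ± 0.15 (SD, n = 3 each), a difference of 0.25 that did not pass (adjusted p = 0.440). The day 14 call ended when DMSO day 14 library 1 or 2 or GSK day 14 library 1, 3 or 4 was left out (adjusted p up to 0.0929), and the call over both days ended without GSK day 8 library 2 or 3 (up to 0.0648). Among the libraries with AY036118 higher the day 14 change was 0.56 (adjusted p = 0.0379, limma), and with the 4T1 epithelium mean in the model 0.50 (adjusted p = 0.0640). With the split by ribosomal RNA gene as a term both calls ended, at 0.49 on day 14 (adjusted p = 0.0827, limma) and 0.36 over both days (adjusted p = 0.0801). Snord14c on day 14 was at 4.77 ± 0.21 and 4.61 ± 0.18 (DMSO and GSK, SD, n = 4 each), and Snord14d at 5.18 ± 0.15 and 5.16 ± 0.12. Hspa8 itself was at 10.27 ± 0.46 and 9.92 ± 0.29 on day 14. All stretches of 31 bases in the 3 snoRNAs also occur in annotated Hspa8 transcripts that keep these introns, so how reads were divided between them and Hspa8 is uncertain.

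The Rnu3b form of U3 was lower in GSK over both days, and lower on day 14 than on day 8 in each pre-treatment. Rnu3b1, Rnu3b2, Rnu3b3 and Rnu3b4 lie within introns of Tex14 on chromosome 11, between 87443237 and 87471583, and their 215-base models have identical sequences and identical values. These values were 9.95, 8.70 and 9.32 in DMSO and 9.21, 8.72 and 7.80 in GSK on day 8, and 8.32, 7.36, 7.37 and 7.92 in DMSO and 7.25, 7.03, 7.18 and 6.45 in GSK on day 14. On day 14 the groups did not overlap, while on day 8 they did. Over both days the 215-base rows fell by 0.76 (SE 0.24, adjusted p = 0.0448, limma), with -0.75 on day 8 (adjusted p = 0.318) and -0.76 on day 14 (adjusted p = 0.126). The call over both days is fragile. It remained past the threshold in 4 of the 14 fits that left out 1 library, those without DMSO day 8 library 2, GSK day 8 library 1 and DMSO day 14 library 2 or 3, and over all 14 the change lay between -0.91 and -0.56 and the adjusted p between 0.0146 and 0.136. It also ended with no filter on low values (adjusted p = 0.115) and with the split by ribosomal RNA gene as a term (-0.57, adjusted p = 0.198, limma). Among the 9 libraries with AY036118 higher, with 1 DMSO library on day 8, it was -0.65 (adjusted p = 0.127). Tex14, whose introns contain these loci by position, was below the minimum in every library, at 2.91 to 3.31.

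Rnu3b fell with time. The 215-base Rnu3b rows were lower on day 14 than on day 8 by 1.58 in DMSO (-1.58, SE 0.34, 2.99-fold; adjusted p = 0.0377, limma) and by 1.60 in GSK (-1.60, SE 0.34, 3.02-fold; adjusted p = 0.0147). The day 8 and day 14 libraries did not overlap in either pre-treatment, as was so in DMSO for 3 of 26 profiles and 10.1% of all tested genes. In DMSO this was the single profile of 26 that passed (0.522% of all genes fell, and 0.824% changed either way), and in GSK 5 of 26 fell and 0 rose (3.95% and 3.05% of all genes). Of these 5, Rnu3a 214 and Snord17 passed the minimum through day 8 libraries for the most part, as given with their values, so the count supports nothing about the members. The DMSO call remained in 5 of 14 fits that left out 1 library, those without DMSO day 8 library 2, GSK day 8 library 1 or 3, DMSO day 14 library 1 or GSK day 14 library 4 (adjusted p 0.0184 to 0.157 over all 14). The GSK call ended without GSK day 8 library 1 or 2 or GSK day 14 library 4 (adjusted p up to 0.105). Among libraries with AY036118 higher the changes were -0.85 in DMSO (adjusted p = 0.500, with 1 DMSO library on day 8) and -1.28 in GSK (adjusted p = 0.0579).

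The longer and the shorter U3 models did not share their values. The 216-base Rnu3b rows were above 4 in 7 of 14 libraries, at up to 8.50 in DMSO day 8 library 1, and took between 1.51% and 26.7% of the summed unlogged Rnu3b value. They were above 4 in 4 of 5 libraries with Gm42418 higher and in 3 of 9 with AY036118 higher. For Rnu3a, on chromosome 10 from 40258467, the 214-base model took between 2.47% and 77.9%, and it was above 4 in 5 libraries: 8.22 in DMSO day 8 library 1, 6.94, 7.36 and 5.12 in the GSK day 8 libraries, and 5.61 in DMSO day 14 library 2. These models differ from the shorter ones by a single base, and the part of read assignment in their separate values was not tested, so the sums over both models are given next to them. The shares and sums are of unlogged values whose transformation is not given, so they need not be shares or sums of reads. Rnu3a 214 fell from day 8 to day 14 in GSK by 3.58 (-3.58, SE 0.95; adjusted p = 0.0365, limma), but its 213-base partner, at 7.17 ± 1.56 and 6.02 ± 0.21 (SD, n = 3 and n = 4), did not pass. This call ended without GSK day 8 library 1 or 2 or any of the 4 GSK day 14 libraries (adjusted p up to 0.182), and among the libraries with AY036118 higher the change was -3.35 (adjusted p = 0.00387, limma). Rnu3a 214 reached the minimum in 3 GSK day 8 libraries, 1 DMSO day 8 library, 1 DMSO day 14 library and 0 GSK day 14 libraries, so its passing the minimum rested on the group in which it was high, and nothing is read from this call.

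**Figure D3:**
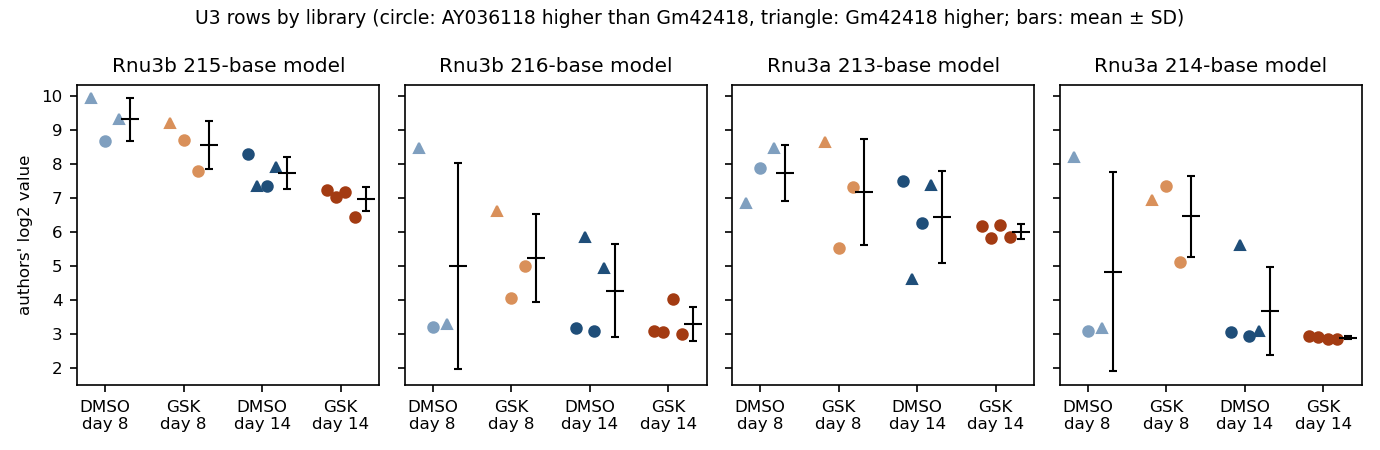
Authors' log2 values of the shorter and longer U3 models by library (circles where AY036118 was higher than Gm42418, triangles for the reverse), with mean ± SD beside each group (n = 3 on day 8, n = 4 on day 14). The 215-base Rnu3b values step down from DMSO day 8 to GSK day 14, while the longer models are near 3 in at least 7 of 14 libraries and higher in the rest.

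Summed over its 8 rows, Rnu3b was at 11.49 ± 0.84 and 10.73 ± 0.72 on day 8 (DMSO and GSK, SD, n = 3 each) and at 9.92 ± 0.39 and 9.09 ± 0.36 on day 14 (SD, n = 4 each). The sum was lower in GSK by -0.80 over both days (SE 0.25; adjusted p = 0.0463, limma), and on day 14 against day 8 by -1.64 in GSK (SE 0.36; adjusted p = 0.0171) and -1.57 in DMSO (SE 0.36; adjusted p = 0.0549, which did not pass). Rnu3a summed over its models fell from day 8 to day 14 in GSK by 1.95 (-1.95, SE 0.36; adjusted p = 0.00772), from 8.12 ± 0.80 to 6.17 ± 0.19. In DMSO it went from 8.38 ± 0.40 to 6.91 ± 0.71, which did not pass (adjusted p = 0.0687). For the pre-treatment, the Rnu3a sum did not pass over both days (-0.50, SE 0.25; adjusted p = 0.194).

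The 4T1 epithelium list fell with time as U3 did. Of its 9 tested genes, 7 were lower on day 14 than on day 8 in GSK and 1 in DMSO, and Krt18, for example, fell by 2.95 in GSK (SE 0.42; adjusted p = 0.00198, limma). The summed level of the 15 listed genes in the table ranged from 11.19 to 11.52 in DMSO and 10.82 to 11.92 in GSK on day 8, and from 10.32 to 11.00 and 10.24 to 10.73 on day 14. With the list's mean as a covariate, 0 of 32 members passed on day 14 against day 8 in either pre-treatment, and the 215-base Rnu3b change in GSK was -0.64 (SE 0.63; adjusted p = 1.00, limma). The same covariate left the Rnu3b change between the pre-treatments over both days at -0.82 (adjusted p = 0.0240). Between the pre-treatments, 1 of the 9 tested list genes, Krt14, was higher in GSK on day 8 (1.37, adjusted p = 0.0361, limma). Krt14 was also higher over both days (0.68, adjusted p = 0.0143), and 0 list genes were lower on day 8 or over both days. The list means of the days did not overlap in either pre-treatment, so the list and the day cannot be told apart. Endothelial genes had a list mean of 5.84 ± 0.15 and 5.77 ± 0.41 on day 8 (SD, n = 3 each) and 5.29 ± 0.20 and 5.25 ± 0.09 on day 14 (SD, n = 4 each), and their part in the U3 result was not tested.

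**Figure D4:**
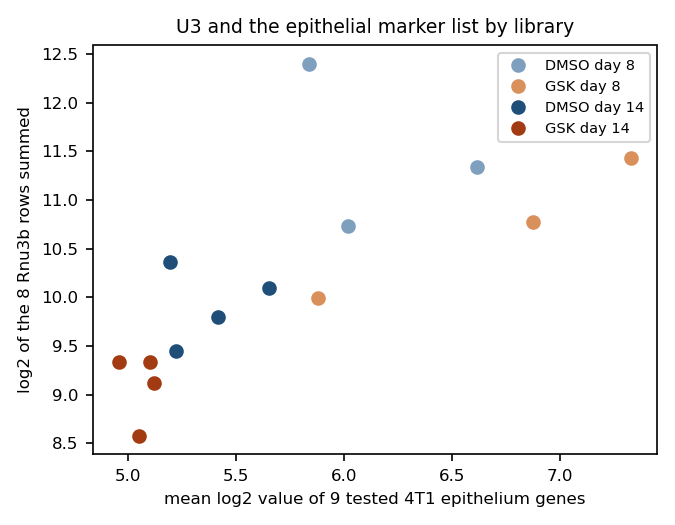
Log2 of the summed Rnu3b rows (vertical) against the mean log2 value of the 9 tested 4T1 epithelium genes (horizontal), 1 point per library, coloured by group. The GSK day 14 libraries lie at the lower left (list mean 4.96 to 5.12, Rnu3b 8.58 to 9.34) and all day 8 libraries have a list mean of at least 5.84.

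The other snoRNAs that passed with time did so in GSK, and the difference between the pre-treatments in the change with time, which is the interaction given earlier, passed for no member. Snord83b lies in an intron of the ribosomal protein gene Rpl3 (chr15:80078498-80078591) and was at 6.27, 5.75 and 5.27 on day 8 and at 4.87, 4.80, 5.00 and 4.75 on day 14, a fall of 0.91 (-0.91, SE 0.24; adjusted p = 0.0369, limma). Snord14d fell by 0.67 (-0.67, SE 0.17; adjusted p = 0.0329), from 6.17, 5.71 and 5.61 to 5.28, 5.14, 5.00 and 5.23. Snord17, in an intron of the sorting nexin gene Snx5, fell by 0.44 (-0.44, SE 0.12; adjusted p = 0.0400), but it reached the minimum in 5 day 8 libraries and in no day 14 library, so its passing the minimum already rested on day 8. None of the 3 overlapped between the days in GSK, as was the case for 11 of 26 profiles (42.308%) and 30.3% of all tested genes. In DMSO the changes had the same sign without passing (limma). They were -0.56 for Snord14d (adjusted p = 0.136), -0.32 for Snord17 (adjusted p = 0.234) and -0.27 for Snord83b (adjusted p = 0.636). Snord14d and Snord17 did not overlap between the days in DMSO either, as was so for 3 of 26 profiles and 10.1% of all tested genes, and Snord83b did. Each of the 3 calls in GSK ended without GSK day 8 library 1 or 2 or any of the 4 GSK day 14 libraries. That of Snord17 also ended without DMSO day 14 library 4 (adjusted p up to 0.221 for Snord14d, 0.240 for Snord83b and 0.249 for Snord17, limma). Among libraries with AY036118 higher the changes were -0.66 for Snord83b (adjusted p = 0.110), -0.50 for Snord14d (adjusted p = 0.0886) and -0.34 for Snord17 (adjusted p = 0.160, limma). Rpl3 was at 12.65 ± 0.17 on day 8 and 12.48 ± 0.03 on day 14 in GSK, and Snx5 at 10.77 ± 0.35 and 10.92 ± 0.04 (SD, n = 3 and n = 4). Hspa8, which contains Snord14d, was at 10.49 ± 0.29 and 9.92 ± 0.29. Its change of -0.57 did not pass (SE 0.25; adjusted p = 0.166, limma). Since Hspa8 transcripts share the sequence of Snord14d, whether the fall of Snord14d is separate from that of Hspa8 is uncertain.

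Snord13 (U13), which acts in acetylation of the small-subunit ribosomal RNA, was at 5.65 ± 0.39 and 5.56 ± 0.51 on day 8 (DMSO and GSK, SD, n = 3 each) and at 5.22 ± 0.48 and 5.71 ± 0.29 on day 14 (SD, n = 4 each), and its groups overlapped on each day. Snord118 (U8), needed for processing of the large-subunit ribosomal RNA, stayed between 3.39 and 4.06 in the 14 libraries, close to the minimum. Snora30, the single box H/ACA member, ranged from 3.18 to 3.72 and reached the minimum in 8 libraries, none of them from GSK day 14. Neither passed in any comparison, nor did Snord13. Just outside the minimum were Scarna2, at 3.41 in its highest library and the minimum in 1 library only, Snora73b (highest value 3.02) and Snora20 (2.29). Leaving U3 aside, the 9 small RNAs at the minimum had a median length of 104 bases (86 to 238), and the 57 below it 130 bases (70 to 414). These sets differ in class, with 8 box C/D and 1 box H/ACA rows at the minimum. Below it were 22 box C/D, 29 box H/ACA and 6 small Cajal body RNA rows. The medians are therefore no comparison within a class, and nothing is read from them about length and detection.

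Among host genes, Snhg3, Gas5 and Snhg20 differed between the pre-treatments. Snhg3 hosts Snora73a and Snora73b, the U17 RNAs that act in ribosomal RNA cleavage. On day 14 it was at 4.84, 4.10, 4.68 and 4.07 in DMSO and at 5.24, 5.02, 5.46 and 5.61 in GSK, with no overlap, a rise of 0.91 (SE 0.19, 1.88-fold; adjusted p = 0.00950, limma). On day 8 it was at 4.68 ± 0.19 and 4.82 ± 0.07 (SD, n = 3 each), a difference of 0.14 (adjusted p = 0.783). The day 14 effect exceeded the day 8 effect by 0.77 (SE 0.28), which did not pass (adjusted p = 0.532). The day 14 call remained in all 14 fits that left out 1 library (adjusted p up to 0.0483, limma). With the split by ribosomal RNA gene as a term the day 14 change was 0.75 (adjusted p = 0.0416, limma). Over both days the rise was 0.53 (SE 0.14; adjusted p = 0.0230), and this call ended without GSK day 8 library 3 or GSK day 14 library 4 (adjusted p up to 0.0615). It also ended with no filter on low values (adjusted p = 0.0529) and with the split by ribosomal RNA gene as a term (0.39, adjusted p = 0.120, limma). Among the libraries with AY036118 higher the change was 0.57 on day 14 (adjusted p = 0.0655) and 0.34 over both days (adjusted p = 0.149), again with 1 DMSO library on day 8. Of the 31-base stretches in Snhg3, 70.9% recur elsewhere in the annotation, most of them in the antisense gene Gm17300, which was at 2.20 to 2.71, below the minimum. Rcc1, which overlaps Snhg3 on the same strand and also contains Snora73a and Snora73b, was among the genes that shared most. Rcc1 ranged from 4.80 to 6.48 and did not pass in any comparison. How reads were divided between Rcc1 and Snhg3 was not tested.

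Gas5, named for its accumulation in growth-arrested cells and host to several box C/D snoRNAs, was at 7.63, 8.29 and 8.04 in DMSO and 8.25, 8.43 and 8.37 in GSK on day 8. On day 14 it was at 8.48, 7.77, 8.37 and 8.26 in DMSO and at 8.57, 8.65, 8.67 and 8.94 in GSK, and only on day 14 were the groups apart. The rise was 0.43 over both days (SE 0.13; adjusted p = 0.0379, limma), with 0.36 on day 8 (adjusted p = 0.370) and 0.49 on day 14 (adjusted p = 0.0710). Gas5 kept the call in 5 of 14 fits that left out 1 library, those without DMSO day 8 library 2, GSK day 8 library 1, DMSO day 14 library 1 or 3 or GSK day 14 library 1 (adjusted p 0.0196 to 0.0894 over all 14). It also ended with no filter on low values (adjusted p = 0.0833), with the replicate block (adjusted p = 0.0564) and with the split by ribosomal RNA gene as a term (0.28, adjusted p = 0.185, limma). Among the libraries with AY036118 higher, with 1 DMSO library on day 8, it was 0.20 (adjusted p = 0.270).

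Snhg20 moved the other way. It was at 6.53, 7.01 and 6.79 in DMSO and 6.44, 6.53 and 6.17 in GSK on day 8, and at 6.69, 6.59, 6.21 and 6.17 in DMSO and 6.12, 6.04, 6.03 and 5.95 in GSK on day 14. The groups did not overlap on either day, by a narrow margin on each. Over both days it fell by 0.39 (-0.39, SE 0.12; adjusted p = 0.0415, limma), with -0.39 on day 8 (adjusted p = 0.293) and -0.38 on day 14 (adjusted p = 0.129). The call remained without DMSO day 8 library 1, GSK day 8 library 1 or DMSO day 14 library 3 or 4 and ended without any other library (adjusted p up to 0.124). It also ended with no filter on low values (adjusted p = 0.0720) and with the split by ribosomal RNA gene as a term (-0.43, adjusted p = 0.0727, limma). Among the libraries with AY036118 higher the change was -0.53 (adjusted p = 0.0399), but this fit holds a single DMSO library on day 8, whose spread is borrowed from the other groups. The small Cajal body RNA Gm26083 inside Snhg20 was at 6.96 ± 0.33 and 6.56 ± 0.42 on day 8 and 6.09 ± 0.24 and 5.90 ± 0.32 on day 14, and did not pass in any comparison.

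**Figure D5:**
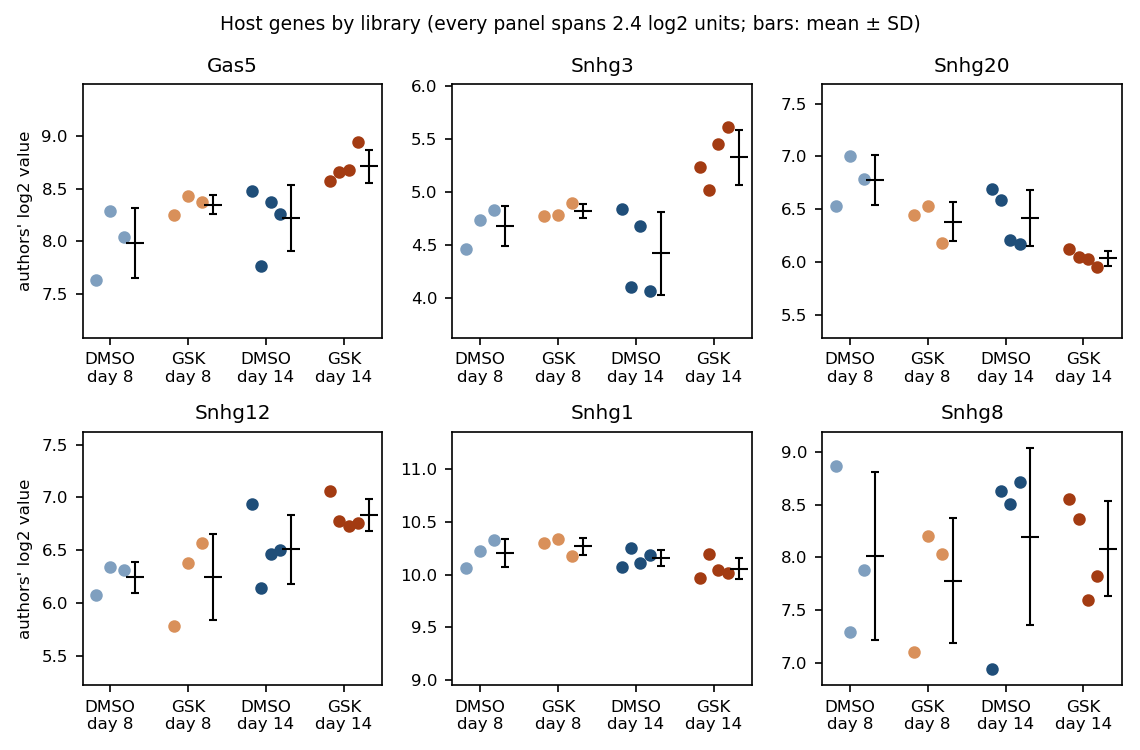
Authors' log2 values of 6 host genes by library, with mean ± SD beside each group (n = 3 on day 8, n = 4 on day 14); every panel spans 2.4 log2 units. The GSK day 14 libraries of Snhg3 and Gas5 lie above those of DMSO day 14, those of Snhg20 lie below, and Snhg1 stays between 9.97 and 10.34.

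The remaining host genes did not pass in any comparison. Snhg1, another host of several snoRNAs, stayed between 9.97 and 10.34 in all 14 libraries. Snhg15 ranged from 8.13 to 8.88, Snhg17 from 5.68 to 6.27, Snhg5 from 5.94 to 6.80, and Snhg6 from 3.60 to 4.91. Snhg12 was at 6.24 ± 0.15 and 6.24 ± 0.41 on day 8 (DMSO and GSK, SD, n = 3 each) and at 6.51 ± 0.33 and 6.83 ± 0.15 on day 14 (SD, n = 4 each). Snhg8 ranged from 6.94 to 8.86, with values at both ends in DMSO libraries. Snhg9 ranged from 6.36 to 7.67, and Rps2, which lies opposite to it, fell by 0.68 in GSK on day 14 (-0.68, adjusted p = 0.0321, limma). Snhg11 and Snhg14 were close to the minimum, at 3.14 to 4.52 and 3.01 to 3.89, and reached it in 9 and 7 libraries. The 13 host genes at the minimum contain 245 gene models annotated as snoRNA or small Cajal body RNA, symbols listed more than once included, 37 of them outside Snhg14. Only 18 of these models are in the table and 1, Gm26083, reached the minimum, so for nearly all hosts the snoRNAs they carry cannot be set beside the host. Strand of the libraries is not given in the sources used here, and the hosts with a gene on the other strand (Gas5, Snhg3, Snhg6, Snhg9 and Snhg14) are uncertain for that reason.

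Genes for the proteins that build and use these particles changed in RNA level in a few cases only, and no protein was measured. Of the 4 box C/D core protein genes, Fbl, which encodes the methyltransferase fibrillarin, fell by 0.40 over both days (-0.40, SE 0.09; adjusted p = 0.00943, limma) and none passed within a day. Of the 4 box H/ACA core protein genes, Nhp2 (-0.60, adjusted p = 0.0478) and Nop10 (-0.49, adjusted p = 0.0382) were lower in GSK on day 14, and Nhp2 over both days. Of 16 tested assembly and cap factors, Pih1d1 of the R2TP chaperone complex (-0.66, adjusted p = 0.0286) and Nufip1 (-0.62, adjusted p = 0.0149) were lower on day 14. Both were also lower over both days, where Tgs1, which trimethylates the cap of U3, was higher by 0.48 (adjusted p = 0.0414, limma). From day 8 to day 14 in GSK, Pih1d1 (-0.71, adjusted p = 0.0366) and Nufip1 (-0.58, adjusted p = 0.0329) fell too.

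None of the 24 tested genes of the U3 processome passed in any of the 6 comparisons, with medians of -0.03 over both days and 0.01 from day 8 to day 14 in GSK. Of 17 tested genes of snoRNA trimming and the exosome, the deadenylase Parn (0.32, adjusted p = 0.0439) and the noncanonical poly(A) polymerase Tent4b (0.51, adjusted p = 0.0450) were higher over both days, and none passed in the other comparisons. Of 13 tested genes of RNA polymerase I and its factors, Taf1b was higher on day 14 (0.46, adjusted p = 0.0409, limma) and over both days (0.45, adjusted p = 0.0114). The medians of the trimming and polymerase I lists lay between -0.02 and 0.14 in every comparison, beside 0.00 to 0.03 over all tested genes.

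Other lists moved on day 14 as well. Of 13 mitochondrially encoded genes, 5 were higher in GSK on day 14 and 0 on day 8, and their mean was 9.81 ± 0.17 and 9.88 ± 0.14 on day 8 (DMSO and GSK, SD, n = 3 each) and 9.87 ± 0.26 and 10.53 ± 0.31 on day 14 (SD, n = 4 each). Of 16 pan-macrophage genes, 6 were higher and 3 lower in GSK on day 14. The part of these lists in the changes of Snord89, Snhg3 and Snord14e was not tested.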

How the data were processed

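RNA from 14 libraries of F4/80-enriched tumour cells was measured in 24556 mouse genes. The authors deposited log2 values whose transformation is not given in the sources used here. Per the submitters' processing notes the tools were DESeq2 1.12.4, RSEM 1.2.29 and Bowtie2, and the builds GRCh38 and mm10. Without counts, the depth and its precision are unknown. Identifiers were matched to GENCODE M21 (GRCm38), 24470 with a match and 86 without. The sequences came from its transcripts.

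Genes with at least 10 (unlogged) in 3 libraries were fitted with limma 3.58.1 (R 4.3.3), using 4 group means, all 14 libraries, an empirical Bayes trend, two-sided tests and Benjamini-Hochberg adjustment over 11886 genes (threshold 0.05). The fit was also run on simulated data with independent normal noise. These hold no ribosomal RNA split and no effect shared within a library, so nothing is concluded from that run here. Groups came from the labels, and 6 comparisons were made. SE is that of the fit, and log2 changes of low genes may be understated.

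The members and gene lists were chosen with earlier results of these data known. Named were up to 8 members per direction and comparison past the threshold, fixed host genes, Snord89, U3, members of extreme mean, their hosts, and up to 3 genes per list and direction. Rnf149, Rcc1, Rps2, Gm17300 and Gm26083 were added after their values were seen. Same-numbered libraries did not deviate together (correlations -0.34 to 0.52), so replicate numbers were not used as pairs. The alternatives were other pseudocounts, filters, scalings, variance models, sample sets, covariates and left-out libraries. After the data were seen, summed U3 models, removal of library 1 from both day 8 groups and the host test were added. The list of nonsense-mediated decay genes is not reported here.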

Additional observations from a re-analysis of the deposited data

Results flagged for a closer look

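Values were set apart where the highest or lowest of 4 libraries lay far from the other 3 for the range of its group. In 52 groups of 4 examined, 6 met this, and chance alone gives about 1 in 20. Among the U3 rows, the 214-base model of Rnu3a was at 5.61 in DMSO day 14 library 2, with the nearest library at 3.09, and the 216-base model of Rnu3b was at 4.03 in GSK day 14 library 3, with the nearest at 3.08. Snhg8 was at 6.94 in DMSO day 14 library 1, with the nearest at 8.51. Snhg12 was at 7.06 in GSK day 14 library 1, with the nearest at 6.77. The other flags are small in size: Snord14c was at 4.34 in GSK day 14 library 1 (nearest 4.67) and Snord17 at 3.05 in DMSO day 14 library 1 (nearest 3.23).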

How the results depend on the processing

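Of the 32 rows, 0 passed on day 8, 3 on day 14, 9 over both days, 0 for the difference between days, 4 with time in DMSO and 8 with time in GSK (limma). Leaving out 1 library gave 0 to 1, 2 to 4, 1 to 10, 0 to 0, 0 to 4 and 0 to 9, and time in GSK reached 0 without GSK day 8 library 1 or 2 or GSK day 14 library 4. Snord89 kept its calls on day 14 and over both days in every fit run. Counts moved by over 1.5 times as follows. Without a filter, 2 passed over both days, 0 with time in DMSO and 4 in GSK. With a minimum of 50, 1 passed on day 14, with 23 rows tested. Library weights gave 0 with time in DMSO and 13 in GSK. The replicate block gave 5 with time in GSK, with no such move elsewhere. Fits of only the groups compared gave 7 on day 14 and 0 with time in DMSO. The ribosomal RNA split as a term gave 1 over both days and 5 with time in GSK, and the 9 libraries with AY036118 higher gave 1 on day 8, 5 over both days, 0 with time in DMSO and 1 in GSK. With the epithelium covariate, 0 passed with time in DMSO and 0 in GSK. Among alternatives added after seeing the data, summed U3 models gave 0 and 5 (of 24 rows), and removal of library 1 from both day 8 groups 0 and 1. Apart from fewer rows or libraries, the cause was not tested. Pseudocounts, quantile normalisation, trimmed-mean rescaling and no trend moved no count by as much.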

Other observations

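Other structured RNAs of the table, chosen after their values were seen, gave these values. Of 7 rows of type snoRNA at the minimum that carry no member symbol, 1 was called between the pre-treatments. It is Gm22972, which was at 8.85 ± 0.20 and 8.21 ± 0.39 on day 8 (DMSO and GSK, SD, n = 3 each) and at 8.68 ± 0.10 and 7.82 ± 0.09 on day 14 (SD, n = 4 each), a change of -0.75 over both days (SE 0.12; adjusted p = 0.00157, limma). The 7SL rows Rn7s1 and Rn7s2, the RNA of the signal recognition particle, share identical values and were lower in GSK over both days by -0.75 (SE 0.17; adjusted p = 0.0110). The 7SK RNA Rn7sk, a regulator of transcription elongation, had a change of -0.42 that did not pass (adjusted p = 0.0658). Of 27 spliceosomal and other small nuclear RNA rows, 0 were higher and 3 lower over both days.

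The mitochondrial ribosomal RNA mt-Rnr2 had changes close in size to those of Snord89. It was at 12.71 ± 0.35 and 13.93 ± 0.07 on day 8 (DMSO and GSK, SD, n = 3 each) and at 13.00 ± 0.55 and 14.27 ± 0.42 on day 14 (SD, n = 4 each), which is 1.24 over both days (SE 0.19; adjusted p = 0.00157, limma). Whether the rise of Snord89 and that of mt-Rnr2 are connected was not tested.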
